A study of Mus musculus with 9 samples.

Results

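Aminoacyl-tRNA synthetases are the enzymes that join each amino acid to its tRNA, the step that gives the ribosome its building blocks. Animal cells carry one set for the cytosol and another, also encoded in the nucleus, for the mitochondrion, and a few genes such as Gars and Kars serve both compartments. Several cytosolic enzymes are held together with scaffold proteins in the multisynthetase complex. When an amino acid runs short, uncharged tRNA activates the kinase GCN2, the transcription factor ATF4 is translated, and ATF4 raises amino acid transporters, biosynthetic enzymes and many of the cytosolic synthetases. The 36 genes described here are a list of 20 cytosolic and 16 mitochondrial synthetases, taken by symbol and matched to the Ensembl identifiers of a mouse table of 21159 genes. All 36 were in that table, and all 36 had enough counts to be tested.

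Expression was measured by QuantSeq, which reads a short tag near the polyadenylation site of each mRNA, so a count does not grow with transcript length. All 9 libraries came from lineage-depleted marrow cells with floxed Runx2 (Runx2fl/fl) and 1 copy of a tamoxifen-activated Cre transgene (CreErt2tg/+), whose promoter the labels do not name. The 3 BM progenitor libraries were untreated, and their RNA was taken before the first replating in methylcellulose. The 3 Runx2wt and 3 Runx2ko libraries were taken later, in suspension culture, after transformation by retroviral expression of the leukaemia fusion KMT2A-MLLT1 (with eGFP). Runx2wt cells received ethanol and Runx2ko cells 4-hydroxytamoxifen at 400 nM for 24 hours. Replating was at intervals of 7 days. The labels do not say whether the BM progenitor cells had taken up the retrovirus. Culture form, passage and transformation go together between BM progenitor and the other groups, and 4-hydroxytamoxifen and Cre go with every Runx2ko library, so their parts cannot be told apart. The samples are labelled as independent biological replicates.

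Library totals lay between 3118594 and 5348177 counts. Hoxa9, a gene driven by KMT2A fusions, was at 29.4 to 47.8 CPM (counts scaled to library size) in BM progenitor, 435 to 517 CPM in Runx2wt and 169 to 358 CPM in Runx2ko. Runx2 itself gave 46.7 to 58.8 CPM in BM progenitor, 131 to 179 CPM in Runx2wt, and 21.02, 120.1 and 135 CPM in the 3 libraries labelled Runx2ko. Since the floxed exon is not named in the labels, and tags read only the 3' end, these values do not check the deletion. One library differed from the rest: across genes, log2 CPM of Runx2ko replicate 1 had correlations of 0.793 to 0.816 with other transformed cells, whereas those 5 libraries had at least 0.934 among themselves. With the BM progenitor libraries, Runx2ko replicate 1 had correlations of 0.83 to 0.841, above those with other transformed cells. The other 5 transformed libraries had 0.818 to 0.864 with BM progenitor. In Runx2ko replicate 1 the 12 mast cell and basophil markers added up to 5498 CPM, with a range of 116 to 564 CPM for the remaining transformed cells and 1265 to 1437 CPM for BM progenitor. The 12 monocyte and macrophage markers of that library added up to 529 CPM, with ranges of 4117 to 11960 CPM and 3247 to 4497 CPM. None of the monocyte markers and none of the mast cell markers was at 0 in that library. The 7 measured eosinophil markers summed to 1371 to 1835 CPM in BM progenitor and to 2.49 to 17.5 CPM in the transformed libraries, where Ear1, Ear2 and Epx were at 0 in all 3 Runx2wt libraries. The 6 early neutrophil markers summed to 4967 to 6506 CPM in BM progenitor, 932 to 2486 CPM in Runx2wt and 580 to 3528 CPM in Runx2ko, with Fcnb at 0 in 5 transformed libraries. In bulk RNA, a change in the number of cells of one type and a change in RNA per cell cannot be told apart, and the part of this mix in the synthetase results was not tested.

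The cytosolic synthetases were abundant in every group. Their means over the 9 libraries ran from 42.1 CPM for Cars, the cysteinyl enzyme, to 483 CPM for Farsa, the catalytic subunit of the phenylalanyl enzyme, followed by Eprs at 449.9 CPM and Nars at 431 CPM. Mitochondrial synthetases were counted much less, from 4.92 CPM for Cars2 to 44.2 CPM for Lars2. Tag capture can differ between genes, so these levels order the genes only roughly. The 36 genes together summed to 4087 to 4298 CPM in BM progenitor and 3915 to 4316 CPM in Runx2wt. In Runx2ko replicates 1 to 3 the sums were 5149, 4657 and 3475 CPM. The Runx2ko libraries thus lay on both sides of every other library, and the heat map of all members shows this library by library.

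**Figure D1:**
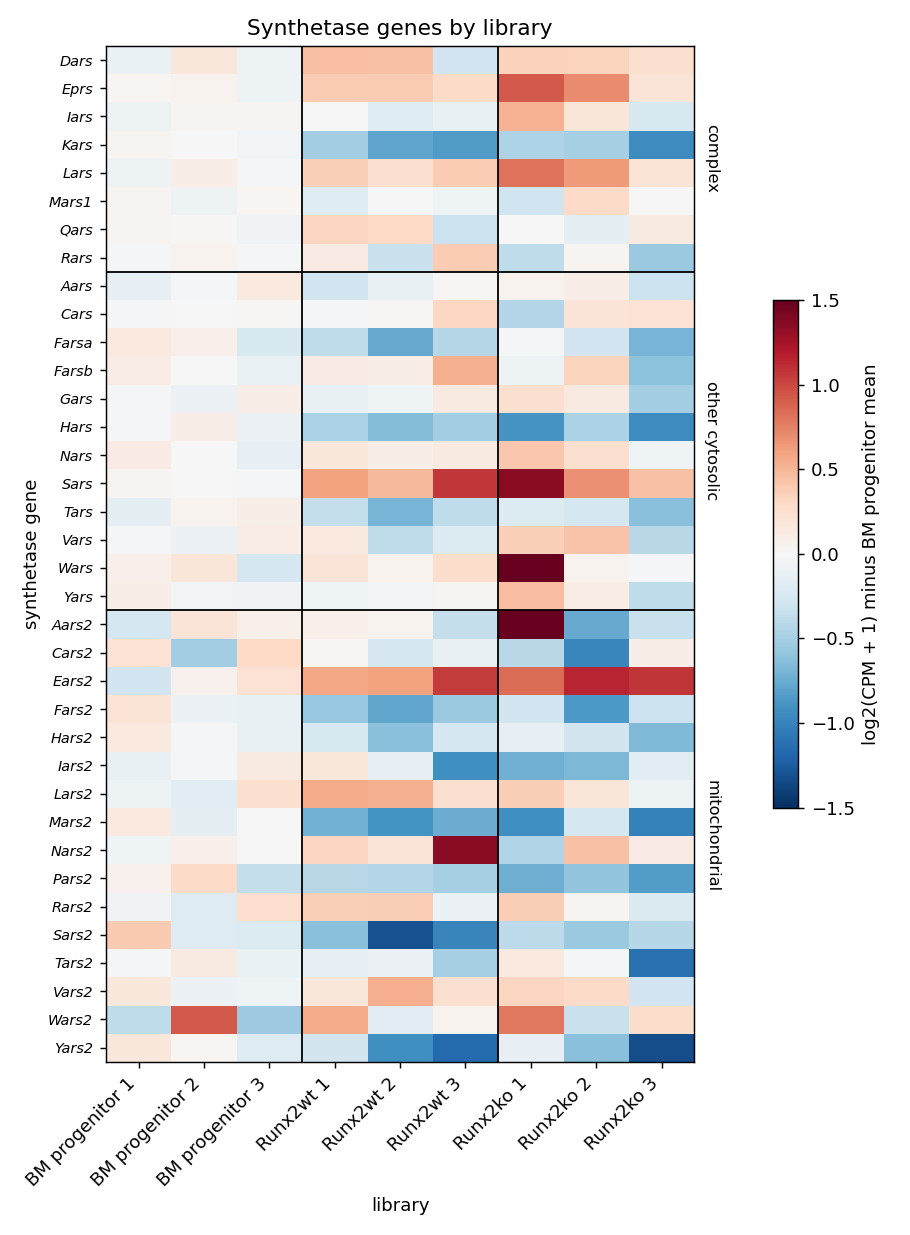
Heat map of the 36 synthetase genes (rows, grouped into complex, other cytosolic and mitochondrial) in the 9 libraries (columns). Colour is log2(CPM + 1) minus the mean of the 3 BM progenitor libraries, with the scale limited to ±1.5, which Wars and Aars2 exceed in Runx2ko replicate 1. Eprs, Lars, Sars and Ears2 are above the BM progenitor mean in every transformed library, and Kars and Hars are below it.

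Of the 36 synthetase genes, 35 did not pass the test between transformed Runx2wt cells and BM progenitor cells. The test was edgeR's quasi-likelihood F-test on all 9 libraries, with Benjamini-Hochberg adjustment over the 11196 genes tested, and a gene passed below 0.05. None of the 36 genes rose and 1, Kars, fell, against 8.28% of all genes higher and 5.23% lower. By an unadjusted edgeR p under 0.05, 3 members were higher and 7 lower, against 17.7% and 14% of all genes, and DESeq2 called 2 higher and 5 lower after adjustment, against 12.6% and 8.96% of all genes. In 6 members every Runx2wt library lay above every BM progenitor library and in 10 members below, against 24.8% and 24.5% of all genes. The median log2 fold change of the members was -0.05 (range -1.08 for Sars2 to 0.79 for Ears2), and that of all genes 0.011. The median size of the change, whatever its direction, was 0.25 in the members and 0.47 in all genes. For 23 of the 36, the 95% interval of the fold change lay within 2-fold in either direction (63.9%), which held for 37.2% of all genes.

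Against the same BM progenitor libraries, Runx2ko cells had 4 synthetase genes that rose (Eprs, Lars, Sars and Ears2) and 2 that fell (Kars and Hars). Among all genes 10% were higher and 7.14% lower by the same test. Groups did not overlap for 5 members above and 9 below, against 19.5% and 18.8% of all genes. The members' median log2 fold change was 0.007 (range -0.87 for Pars2 to 1.07 for Ears2), and that of all genes 0.067. The interval lay within 2-fold for 20 of the 36 (55.6%), against 36.3% of all genes. Both comparisons use the same control libraries, so their values are given side by side below and are not 2 independent results.

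**Figure D2:**
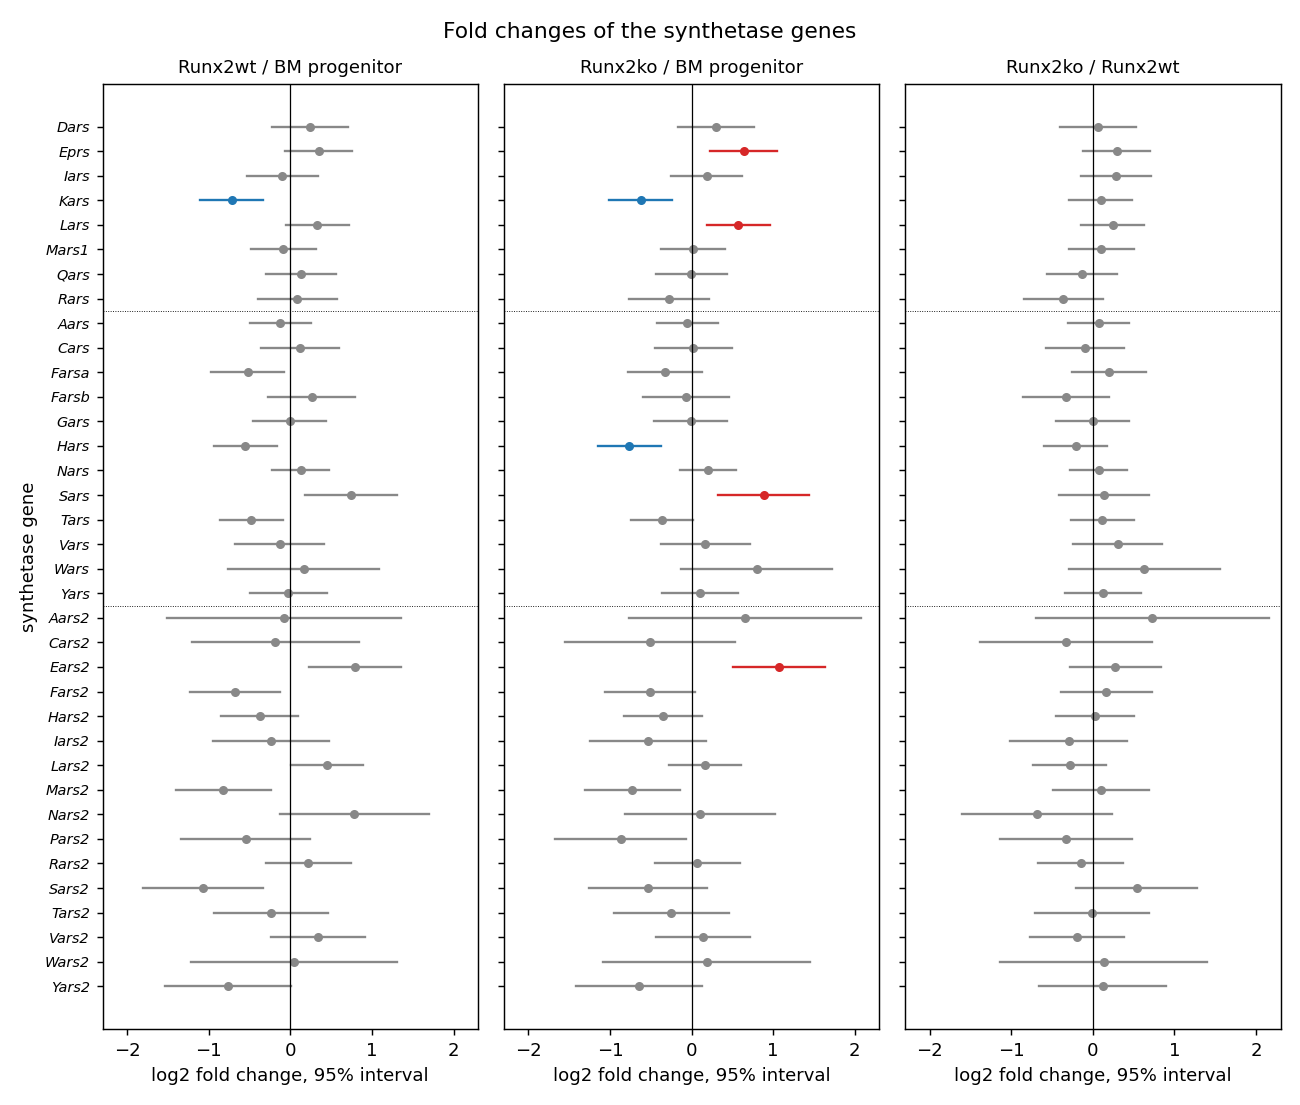
Log2 fold changes (points) with 95% intervals (lines) of the 36 synthetase genes in 3 panels, Runx2wt over BM progenitor, Runx2ko over BM progenitor and Runx2ko over Runx2wt. Red marks genes that rose and blue genes that fell at an adjusted p under 0.05, grey the rest: 1 gene is coloured in the first panel, 6 in the second and none in the third.

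The multisynthetase complex, with 8 of the 36 members, held 3 of the 6 genes that passed, 2 higher and 1 lower. Eprs (ENSMUSG00000026615, GRCm38 chromosome 1, 185363044 to 185428360, plus strand) encodes a single protein with glutamyl and prolyl synthetase activity. Its BM progenitor libraries held 358, 364 and 335 CPM, against 458, 459 and 429 CPM in Runx2wt and 668, 575 and 403 CPM in Runx2ko. Every transformed library was above every BM progenitor library, while the Runx2ko values reached both above and below Runx2wt. In Runx2ko against BM progenitor Eprs rose by 0.64 on the log2 scale (SE 0.18, adjusted p = 0.0422), and in Runx2wt the difference was 0.35 (SE 0.18, adjusted p = 0.221). Lars (ENSMUSG00000024493, GRCm38 chromosome 18, 42202298 to 42262194, minus strand) encodes the leucyl enzyme, which also acts as a leucine sensor for mTORC1. Its counts were 268, 304 and 277 CPM in BM progenitor, 364, 334 and 370 CPM in Runx2wt and 497, 440.0 and 327 CPM in Runx2ko. Here too the lowest transformed library exceeded the highest BM progenitor library, by 327 to 304 CPM. Lars rose in Runx2ko by 0.57 (SE 0.17, adjusted p = 0.0479), and the difference in Runx2wt was 0.33 (SE 0.17, adjusted p = 0.213). Without Runx2ko replicate 1, the Runx2ko differences were 0.47 for Eprs (adjusted p = 0.0616) and 0.44 for Lars (adjusted p = 0.0727), and neither passed. Both calls were also lost without Runx2ko replicate 2 (adjusted p = 0.0792 and 0.0877) and without any single BM progenitor or Runx2wt library (adjusted p from 0.0579 to 0.155).

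Kars, the lysyl synthetase of both cytosol and mitochondrion (ENSMUSG00000031948, GRCm38 chromosome 8, 111993443 to 112011323, minus strand), moved the other way. It was at 204, 198 and 191 CPM in BM progenitor, 137, 113 and 109.6 CPM in Runx2wt and 143, 139 and 102 CPM in Runx2ko. All 6 transformed libraries lay below all 3 BM progenitor libraries, and Runx2wt and Runx2ko overlapped. Kars fell by 0.72 on the log2 scale in Runx2wt (SE 0.17, adjusted p = 0.0279) and by 0.62 in Runx2ko (SE 0.17, adjusted p = 0.0370). Leaving out 1 BM progenitor library ended both calls (adjusted p from 0.0758 to 0.0996 for Runx2wt and 0.0841 to 0.117 for Runx2ko), although the log2 difference stayed between -0.77 and -0.60. The Runx2wt call was also lost without Runx2wt replicate 2 or 3 (adjusted p = 0.107 and 0.0796), and the Runx2ko call without Runx2wt replicate 2 (adjusted p = 0.0561) or Runx2ko replicate 3 (adjusted p = 0.0761). The other 5 complex members (Dars, Iars, Mars1, Qars and Rars) did not pass in either comparison, with log2 differences between -0.28 and 0.31. Over all 8 complex genes the median was 0.11 in Runx2wt and 0.10 in Runx2ko.

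Of the 12 other cytosolic synthetases, 1 rose and 1 fell in Runx2ko, and none passed in Runx2wt. Sars (ENSMUSG00000068739, GRCm38 chromosome 3, 108424865 to 108445209, minus strand) charges tRNA with serine, including the tRNA later converted for selenocysteine. Its BM progenitor counts were close together at 97.1, 93.9 and 92.8 CPM. In Runx2wt they were 144, 133 and 199 CPM, and in Runx2ko 243, 153 and 129 CPM. Again each transformed library was above the BM progenitor range, with Runx2ko replicate 1 the highest. The log2 difference was 0.88 in Runx2ko (SE 0.25, adjusted p = 0.0400) and 0.74 in Runx2wt (SE 0.25, adjusted p = 0.0743). Without Runx2ko replicate 1, Sars was past the threshold in both comparisons, at 0.57 in Runx2ko (adjusted p = 0.0468) and 0.74 in Runx2wt (adjusted p = 0.0099). Without Runx2ko replicate 3, Sars also passed in Runx2wt. The Runx2ko call was lost without any 1 of the BM progenitor libraries (adjusted p from 0.115 to 0.129) or without Runx2wt replicate 1 or 2 (adjusted p = 0.0572 and 0.0548).

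Hars (ENSMUSG00000001380, GRCm38 chromosome 18, 36766528 to 36783205, minus strand) encodes the cytosolic histidyl enzyme. It was at 106, 115 and 99.8 CPM in BM progenitor, 76.4, 67.4 and 74.6 CPM in Runx2wt and 57.2, 76.3 and 54.8 CPM in Runx2ko. The transformed libraries did not reach the BM progenitor range. Hars fell by 0.76 in Runx2ko (SE 0.17, adjusted p = 0.0199), and the difference in Runx2wt was -0.55 (SE 0.17, adjusted p = 0.0618). It passed in Runx2wt without any 1 of the 3 Runx2ko libraries, at -0.55 and adjusted p = 0.0315 without replicate 1. Among the alternatives run, the Runx2ko call was lost only without a BM progenitor library (adjusted p from 0.0565 to 0.0855). Its mitochondrial counterpart Hars2 starts from the opposite strand of the same stretch of chromosome 18 (36783008 to 36792562), the gene bodies overlapping at their 5' ends, far from the 3' tags. Hars2 was at 41.4, 36.7 and 34.4 CPM in BM progenitor, 31.8, 23.8 and 31.2 CPM in Runx2wt and 34.3, 30.8 and 23.3 CPM in Runx2ko. Both transformed groups lay below BM progenitor, by little, and neither difference passed (-0.37 and -0.35, adjusted p = 0.249 and 0.280).

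Tars, the threonyl enzyme, was the remaining cytosolic gene below BM progenitor in every transformed library. It was at 253, 291 and 298 CPM in BM progenitor, 218, 172 and 215 CPM in Runx2wt and 243, 232 and 180.2 CPM in Runx2ko. The log2 differences of -0.48 in Runx2wt (adjusted p = 0.0892) and -0.36 in Runx2ko (adjusted p = 0.171) did not pass. The other cytosolic members had log2 differences from -0.52 for Farsa in Runx2wt to 0.80 for Wars in Runx2ko. Wars, the tryptophanyl enzyme, is also known as an interferon-induced gene. Its Runx2ko value came from 1 library: replicate 1 was at 207 CPM, and the other 8 libraries were between 53.5 and 77.1 CPM. Without it the Wars difference from BM progenitor was 0.008 (adjusted p = 0.979).

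**Figure D3:**
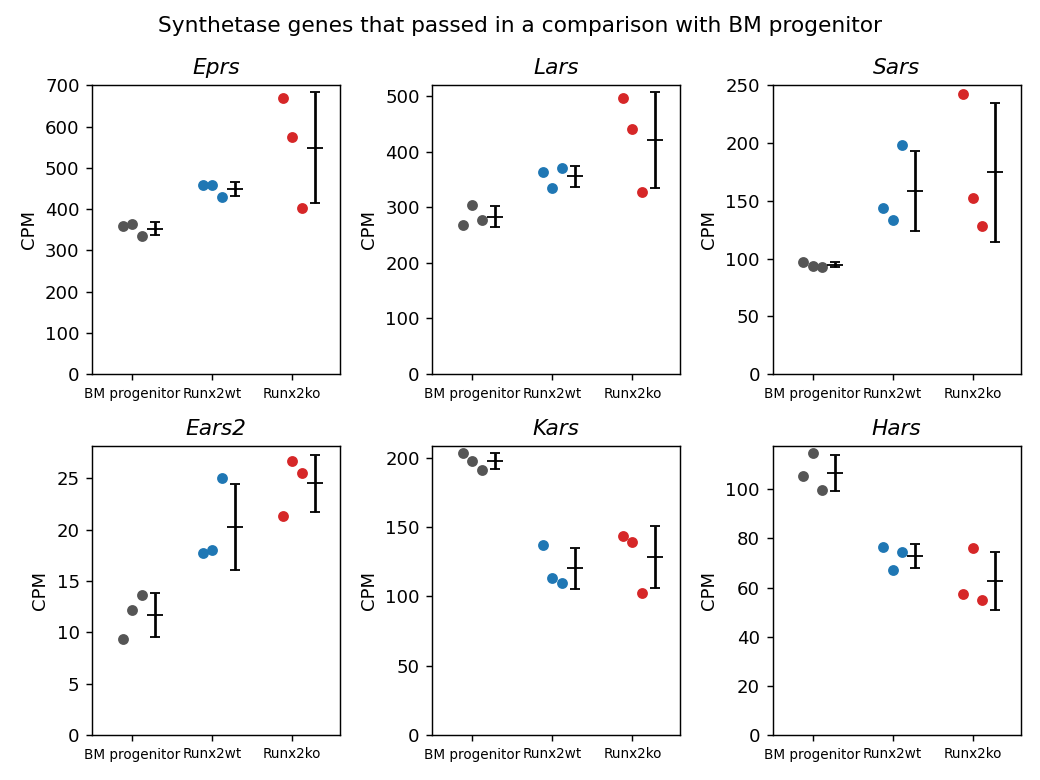
CPM of the 6 synthetase genes that passed in a comparison with BM progenitor, 1 panel a gene, by group. Points are libraries in order of replicate number, the horizontal tick and bar are the group mean ± SD (n = 3), and each axis starts at 0. Eprs, Lars, Sars and Ears2 are higher in all transformed libraries than in BM progenitor, Kars and Hars lower, and the 2 transformed groups overlap in every panel.

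Among the 16 mitochondrial synthetases 1 passed. Ears2 (ENSMUSG00000030871, GRCm38 chromosome 7, 122037213 to 122067263, minus strand) charges mitochondrial tRNA for glutamate and also loads glutamate on the tRNA for glutamine, which an amidotransferase then converts. It was at 9.31, 12.1 and 13.6 CPM in BM progenitor, 17.7, 18.01 and 25.04 CPM in Runx2wt and 21.4, 26.6 and 25.5 CPM in Runx2ko. The groups of transformed cells overlapped each other and stood clear of BM progenitor. Ears2 rose by 1.07 in Runx2ko (SE 0.25, adjusted p = 0.0221), and the difference in Runx2wt was 0.79 (SE 0.25, adjusted p = 0.0651). Without Runx2ko replicate 1 it passed in both, at 1.16 (adjusted p = 0.0105) and 0.79 (adjusted p = 0.0388). The Runx2ko call was lost without any 1 of the BM progenitor libraries (adjusted p from 0.0626 to 0.0884) and, narrowly, without Runx2ko replicate 3 (adjusted p = 0.0504). The amidotransferase subunits Gatb and Gatc together with Qrsl1, the remaining subunit, were on a separate list of partners, and none of them passed.

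The median log2 difference of the mitochondrial members from BM progenitor was -0.21 in Runx2wt and -0.30 in Runx2ko, and -0.474 in Runx2ko without its replicate 1. In Runx2wt 6 of the 16 lay wholly below BM progenitor and 3 wholly above, against 24.5% and 24.8% of all genes. In Runx2ko 6 lay wholly below and 1 above, against 18.8% and 19.5%. Mars2, the methionyl enzyme, was at 29.6, 24.3 and 26.6 CPM in BM progenitor, 15.99, 13.9 and 15.6 CPM in Runx2wt and 13.6, 22.1 and 12.7 CPM in Runx2ko. All transformed libraries were below BM progenitor, and the differences were -0.82 (adjusted p = 0.0633) and -0.72 (adjusted p = 0.0818). Fars2, the phenylalanyl enzyme, was at 26.6, 21.6 and 21.2 CPM in BM progenitor, 15.2, 13.03 and 15.3 CPM in Runx2wt and 18.8, 12.2 and 18.2 CPM in Runx2ko. It too was lower throughout, with differences of -0.67 (adjusted p = 0.0951) and -0.51 (adjusted p = 0.181), neither past the threshold. Without Runx2ko replicate 1, Mars2 and Sars2 passed as lower in Runx2wt (adjusted p = 0.0308 and 0.0325), with Farsa (0.0422) and Tars (0.0459), and Yars2 passed as lower in Runx2ko (adjusted p = 0.0440). In that fit 2 synthetases were higher (Ears2 and Sars) and 6 lower in Runx2wt, against 0 and 1 with all libraries, and in Runx2ko 2 were higher and 3 lower. Calls over all genes rose in the same fit, to 15.9% higher and 12.1% lower in Runx2wt and 15.9% and 12.6% in Runx2ko. Mars2 also passed in Runx2wt without Runx2ko replicate 2 or 3, and in Runx2ko without replicate 2. Low counts made the mitochondrial genes less precise: the 95% interval lay within 2-fold for 6 of 16 in Runx2wt and 5 of 16 in Runx2ko, against 17 and 15 of the 20 cytosolic genes. Cars2, Pars2 and Wars2, at 4.92 to 5.75 CPM on average, had as few as 12 counts in a library.

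Some amino acids are served by a cytosolic and a mitochondrial gene whose tags can be compared within a library. The level of such a ratio depends on how well each 3' end is captured, so only its change between libraries can be read, and the pairs named here were chosen after their values were seen, with no test. The ratio of Sars to Sars2 tags was 5.54, 8.29 and 8.25 in BM progenitor, 17.8, 28.3 and 32.5 in Runx2wt and 25, 17.8 and 13.5 in Runx2ko. Seryl tags were thus shifted to the cytosolic gene in every transformed library. The ratio of Mars1 to Mars2 moved in the same direction, from 2.78, 3.1 and 3.06 to 4.36, 5.72 and 4.88 in Runx2wt, with 4.76, 4.40 and 6.23 in Runx2ko. Mars1 shares its 3' end with Ddit3 on the other strand. Eprs over Pars2, Farsb over Fars2 and Yars over Yars2 were also wholly higher in Runx2wt. The second pairings of Eprs and of Fars2 were not. Eprs over Ears2 overlapped, at 24.6 to 38.5 in BM progenitor and 17.1 to 25.9 in Runx2wt. Farsa over Fars2 overlapped too, at 23.2 to 28.3 and 26.3 to 29. Apart from Nars over Nars2, all remaining pairs overlapped between Runx2wt and BM progenitor. Nars over Nars2 was wholly lower in Runx2wt, at 44.2, 46.1 and 20.2 against 57.8, 47.8 and 46.5 in BM progenitor. In Runx2ko it was 96, 42.5 and 43.8. For Tars over Tars2 the ranges overlapped, at 8.01 to 9.96 in BM progenitor, 5.68 to 9.54 in Runx2wt and 6.76 to 12.5 in Runx2ko. Of Hars over Hars2 the ratio was 2.55 to 3.12 in BM progenitor, 2.39 to 2.83 in Runx2wt and 1.67 to 2.48 in Runx2ko.

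The direct question of the knockout design is whether synthetase genes differ between Runx2ko and Runx2wt. No member passed in either direction in edgeR, in DESeq2 or in limma-voom. Of all genes, 0% were higher and 0% lower in edgeR and in limma-voom, and 0.289% higher and 0.126% lower in DESeq2. Unadjusted p was under 0.05 for 0 members higher and 0 lower, against 5.14% and 2.78% of all genes. The groups did not overlap for 1 member higher and 1 lower, against 4.95% and 4.73% of all genes. The members' median log2 difference was 0.084 (range -0.69 to 0.73), with 0.013 in all genes. For 28 of 36 members the 95% interval lay within 2-fold (77.8%), against 50.9% of all genes, so differences of 2-fold or more were outside the interval for these 28 and not for the other 8.

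The 5 members with the smallest unadjusted p in Runx2ko against Runx2wt were Nars2, Rars, Sars2, Eprs and Wars (adjusted p = 0.692 to 0.718). Nars2, mitochondrial asparaginyl synthetase, was at 10.2, 9.15 and 21.7 CPM in Runx2wt and 5.499, 11.04 and 8.67 CPM in Runx2ko, a difference of -0.69 with a 95% interval of -1.60 to 0.23. The high Runx2wt value was replicate 3, and without it the difference was -0.193. Rars, the arginyl enzyme of the complex, was at 196, 143 and 235 CPM in Runx2wt and 138, 186 and 122 CPM in Runx2ko (-0.36, interval -0.85 to 0.12), and differed by -0.189 without Runx2wt replicate 3 and -0.237 without Runx2ko replicate 3. Eprs, whose values are given above, differed by 0.29, by 0.125 without Runx2ko replicate 1 and by 0.469 without replicate 3. Sars2, at 8.09, 4.71 and 6.12 CPM in Runx2wt and 9.70, 8.56 and 9.49 CPM in Runx2ko, was the member whose Runx2ko libraries were all higher (0.54, interval -0.20 to 1.28). The member wholly lower was Pars2, the mitochondrial prolyl enzyme, at 5.08, 4.99 and 4.73 CPM against 3.88, 4.38 and 3.52 CPM. Wars differed by 0.63 (interval -0.29 to 1.55) with all libraries and by -0.155 without Runx2ko replicate 1, so its direction rested on that library. Aars2, the mitochondrial alanyl enzyme, was likewise high there, at 26.2 CPM against 4.00 to 8.63 CPM in the other 8 libraries, and its difference went from 0.73 to -0.56 without it (chosen after its values were seen).

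The Runx2ko libraries lay far apart. Of the 6 transformed libraries, replicate 1 was the highest for 19 of the 36 members and replicate 3 the lowest for 22. Among all 9 libraries replicate 3 was the lowest for 16 members and the highest for 0. Replicate 1 is the library with the high mast cell and low monocyte marker sums given above. Replicate 3 had 564 CPM of mast cell and 8239 CPM of monocyte markers. Whether cell mix had a part in these levels was not tested.

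The synthetases known as ATF4 targets were 13 cytosolic members (Aars, Cars, Eprs, Gars, Iars, Lars, Mars1, Nars, Sars, Tars, Vars, Wars and Yars). In Runx2ko against BM progenitor 3 of the 13 rose (Eprs, Lars and Sars) and none fell, with a median of 0.17. Over all genes, 10% were higher and 7.14% lower in that comparison. Only Sars of the 13 rose without Runx2ko replicate 1, with a median of 0.069, in a fit with 15.9% of all genes higher. Of the 7 cytosolic members outside the list (Dars, Farsa, Farsb, Hars, Kars, Qars and Rars) none rose and 2 fell, with a median of -0.28. In Runx2wt no gene of the 13 passed (median -0.009), and of the 7 Kars fell (median 0.084). There, 8.28% of all genes were higher and 5.23% lower. The difference between the lists was not tested. Averaged over the 13 genes, log2(CPM + 1) relative to the Runx2wt mean was -0.07, -0.06 and -0.07 in BM progenitor, 0.00, -0.08 and 0.08 in Runx2wt. For Runx2ko it was 0.39, 0.20 and -0.18. Its replicates 1 and 2 were the highest of the 9 libraries and replicate 3 the lowest. For the other 7 cytosolic genes the Runx2ko values were -0.04, 0.07 and -0.32, below the 0.08 to 0.23 of BM progenitor.

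A list of 35 tested genes of ATF4 and the amino acid response was examined beside them. In Runx2wt against BM progenitor 7 rose and 2 fell (median 0.23), and in Runx2ko 12 rose and 3 fell (median 0.60). By the same test 8.28% of all genes were higher and 5.23% lower in Runx2wt, and 10% and 7.14% in Runx2ko. Without Runx2ko replicate 1, an alternative chosen after seeing the data, 10 rose and 3 fell in Runx2wt, and 12 and 3 in Runx2ko (median 0.443), in the fit where calls over all genes rose to 15.9% higher and 12.1% lower in Runx2wt and 15.9% and 12.6% in Runx2ko. Among those with the smallest p that rose were Atf5, a stress-induced bZIP factor (1.87 and 2.02 in Runx2wt and Runx2ko), Stc2, a secreted glycoprotein (2.28 and 2.46), and Chac1, a glutathione-degrading enzyme (1.76 and 2.81). The cystine transporter Slc7a11, itself an ATF4 target, fell in both (-1.84 and -1.25), as did Phgdh, the entry enzyme of serine synthesis (-1.13 and -1.13). Adjusted p was at most 0.0292 for these 5 genes in either comparison. Atf4 mRNA, whose protein level is set mostly by translation, was at 732, 747 and 652 CPM in BM progenitor, 798, 973 and 1059 CPM in Runx2wt and 1261, 1444 and 826 CPM in Runx2ko. It rose in Runx2ko by 0.73 (SE 0.21, adjusted p = 0.0431), while Phgdh was named after its values were seen. Over this list the mean level relative to Runx2wt was -0.30 to -0.26 in BM progenitor and 0.55, 0.37 and 0.08 in Runx2ko replicates 1 to 3. The order of the Runx2ko libraries was thus the same as for the 13 synthetases, over lists that share no gene. That order was not particular to ATF4 targets. Mitochondrial synthetases had it too (0.163, -0.101 and -0.188), as did the 19 tested partners of aminoacylation (0.145, 0.122 and -0.194). Among the 7 other cytosolic synthetases and the genes for tRNA transcription, maturation and export, replicate 2 was the highest of the Runx2ko libraries. In Runx2ko against Runx2wt no gene of this list passed, and 0% of all genes did. At an unadjusted edgeR p under 0.05, 7 of the 35 were higher and 1 lower, against 5.14% and 2.78% of all genes. Their median log2 difference was 0.319, and 0.218 without Runx2ko replicate 1.

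**Figure D4:**
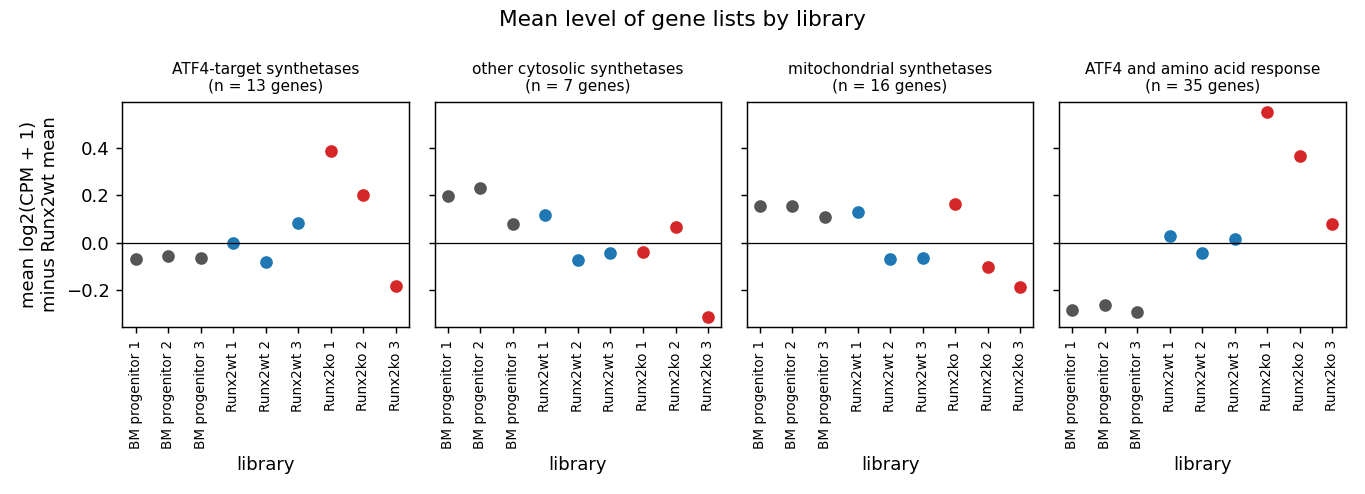
Mean of log2(CPM + 1) over the genes of 4 lists in each library, minus the mean of the 3 Runx2wt libraries; points are libraries, coloured by group. The 13 synthetases known as ATF4 targets and the 35 ATF4 and amino acid response genes are highest in Runx2ko replicate 1, then replicate 2, while BM progenitor libraries lie between -0.070 and -0.057 on the first list and between -0.295 and -0.265 on the last.

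Genes induced by ATF4 often carry a C/EBP-ATF response element, whose core TGATGNAA was searched on both strands of the RefSeq promoter windows of GRCm38.p6, from 250 bases before to 50 after each start. The windows of 26 members were used, 27 in all. The core was found in 4 of the 27 (14.81%), against 1304 of the 32851 windows of all genes (3.97%). All 4 belonged to the ATF4-target list, of which 7 had a window in use; none was found in the 5 windows of other cytosolic members or the 15 mitochondrial ones. The matches are printed with 11 bases on each side, 5′ to 3′ on the gene's strand, with the core in capitals, to show how alike they are; all but that of Yars read in the reverse orientation. Positions count the first transcribed base as 0.
Gars, chr6:55037960-55037989, plus strand, core from -30: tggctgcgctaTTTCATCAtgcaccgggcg
Iars, chr13:49682126-49682155, plus strand, core from 7: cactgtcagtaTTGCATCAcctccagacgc
Tars, chr15:11399655-11399684, minus strand, core from -15: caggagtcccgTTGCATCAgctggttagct
Yars, chr4:129189895-129189924, plus strand, core from 3: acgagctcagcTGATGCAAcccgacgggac
With all libraries, none of these 4 genes passed edgeR's test in any comparison, while Tars passed as lower in Runx2wt in DESeq2, with only the 6 compared libraries and without Runx2ko replicate 1. Their log2 differences in Runx2ko against BM progenitor were -0.01 for Gars, 0.18 for Iars, -0.36 for Tars and 0.10 for Yars. The windows of Eprs and Sars, which rose, held no match, and no window was available for Lars. A match in these letters is a description of sequence, and no match says only that the core is not in that window.

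Synthetases fall into 2 unrelated structural classes, and the counts were also split that way. In Runx2ko against BM progenitor 3 of the 19 class I genes rose (Eprs, Lars and Ears2) and none fell, with a median of 0.10. Eprs has both glutamyl and prolyl activity and was counted in class I only, with Ears2. The mitochondrial prolyl gene Pars2 was in class II, so Eprs does not belong to 1 class alone. Of the 17 class II genes 1 rose (Sars) and 2 fell (Kars and Hars), with a median of -0.25. All genes had 10% higher and 7.14% lower. Without Runx2ko replicate 1, 1 class I gene rose and 1 fell in Runx2ko (median -0.005), and 1 class II gene rose and 2 fell (median -0.468). The shares of all genes in that fit were 15.9% higher and 12.6% lower. In Runx2wt the medians with all libraries were 0.08 and -0.24. The difference between the classes was not tested.

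Genes around the synthetases were counted too. Of all genes 8.28% were higher and 5.23% lower in Runx2wt, and 10% and 7.14% in Runx2ko. Of 19 tested partners of aminoacylation (scaffolds, tRNA editing and amidation enzymes and elongation factors), none rose and 1 fell in Runx2wt, and 1 rose and 2 fell in Runx2ko (medians -0.24 and -0.12). Eef1d, a nucleotide exchange subunit of elongation factor 1, fell in both, by 0.77 and by 0.78 (adjusted p = 0.0209 and 0.0167). Its fellow subunit gene Eef1b2, at 1482 to 1664 CPM in BM progenitor and 2435 to 2776 CPM in Runx2ko, rose by 0.74 in Runx2ko (adjusted p = 0.0258). Tufm, the mitochondrial elongation factor that takes up charged tRNA, was at 18.2, 16.7 and 21.4 CPM in BM progenitor and 9.38, 9.52 and 9.76 CPM in Runx2ko, and fell by 0.98 (adjusted p = 0.0234). Elongation factor genes have many processed pseudogenes, so some of their reads may be assigned elsewhere.

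Of 42 measured genes for tRNA transcription, maturation and export, none rose and 2 fell in Runx2wt, and 2 rose and 3 fell in Runx2ko (medians -0.24 and -0.26). Among all genes 8.28% rose and 5.23% fell in Runx2wt, and 10% and 7.14% in Runx2ko. When Runx2ko replicate 1 was left out, the tRNA list had 0 higher and 6 lower in Runx2wt and 1 higher and 6 lower in Runx2ko, and the partners 1 and 2, and 1 and 3. That fit called 15.9% of all genes higher and 12.1% lower in Runx2wt, and 15.9% and 12.6% in Runx2ko. With all libraries, the genes that fell in Runx2wt were Tsen54, of the tRNA splicing endonuclease (-1.29, adjusted p = 0.0380), and Adat2, of the wobble adenosine deaminase (-0.99, adjusted p = 0.0413). In Runx2ko Elac2, which trims tRNA 3' ends, fell by 1.06 (adjusted p = 0.0109), Rpp30, of ribonuclease P, fell by 1.31 (adjusted p = 0.0387), and Elp3, of the Elongator wobble-modifying complex, rose by 0.74 (adjusted p = 0.0152). Beyond those 3, named by the smallest p, Adat2 fell by 0.96 and the tRNA exporter Xpot rose by 0.56 (adjusted p = 0.0400 and 0.0418). In Runx2ko against Runx2wt none of the 42 genes passed, and none of the 19 partners did, with 0% of all genes passing. By CPM, the highest of the tRNA list was Nsun2, a tRNA cytosine methyltransferase, at 259 to 325 CPM in Runx2wt and 144 to 426 CPM in Runx2ko. Among the partners it was Eef1b2, at 1693 to 2794 CPM and 2435 to 2776 CPM. Since reads of elongation factor genes may be assigned elsewhere, the order of CPM among the partners need not be that of expression.

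For 6 members another gene lies on the opposite strand within the last 1000 bases, where the tags fall, and whether counting used strand is not stated. They are Cars2, Fars2, Farsb, Iars2, Mars1 and Yars, none of which passed with all libraries. One case is Mars1, whose 3' end overlaps that of Ddit3, the stress factor CHOP. In Runx2ko replicate 1 Ddit3 was at 178 CPM, its highest, while Mars1 was at 64.7 CPM, its lowest. Whether reads of one gene were lost or gained through the other was not tested.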

How the data were processed

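QuantSeq 3' tags were counted in 9 mouse libraries, 3 each of BM progenitor, Runx2wt and Runx2ko. Raw counts for each Ensembl gene were deposited, with a second deposited table of normalized values. Dividing one table by the other gave a single constant for every library, so the second holds rescaled counts. FastQC, STAR and DESeq2 are named, with build GRCm38, per the submitters' processing notes. For their versions, the counting program and its strand setting, the sources used here give nothing. GENCODE M21 symbols of that build matched 21042 of 21159 identifiers; Mars1 is listed there as Mars.

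Raw counts were tested in edgeR 4.0.16 (R 4.3.3; quasi-likelihood F-test, TMM factors, filterByExpr, 11196 genes, all 9 libraries in 1 fit), with Benjamini-Hochberg adjustment over all genes and a threshold of 0.05. Standard errors came from the F statistic, and CPM used TMM-scaled library sizes. Every pair of replicates differed beyond sampling noise (smallest chi-square per gene 4.54). The members, gene lists and tests were chosen with earlier results of these data known. Members were printed with all values where they passed, where their groups did not overlap in both comparisons with BM progenitor at 10 CPM or more, or where they had one of the 5 smallest p in Runx2ko against Runx2wt; of other lists, up to 3 passing genes per comparison, or the most highly expressed. The fit was tested on simulated counts. Alternatives were other size factors and filters, DESeq2 1.42.0, limma-voom and limma-trend (limma 3.58.1; the authors' normalized values as log2(value + 1)), a replicate block, only the 6 compared libraries, and leaving out each library. RefSeq promoter windows (GRCm38.p6) were searched for 1 motif. The window of 1 member is not reported here and is left out of the members' motif counts. P-values cover the spread between these samples.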

Additional observations from a re-analysis of the deposited data

How the results depend on the processing

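The counts of synthetases past the threshold against BM progenitor depended on the fit. With all libraries they were 0 higher and 1 lower in Runx2wt, and 4 higher and 2 lower in Runx2ko. In Runx2wt, DESeq2 gave 2 higher and 5 lower, only the 6 compared libraries 3 higher and 8 lower, and the authors' normalized values 2 lower. Calls over all genes moved too, from 927 higher and 586 lower to 1397 and 993 in DESeq2 and 1936 and 1743 with the 6 libraries. In Runx2ko, no filter on low counts gave 2 higher and 1 lower, and only the 6 compared libraries 1 higher and 1 lower. All genes went from 1125 higher and 799 lower to 1004 and 685 without the filter, and 727 and 535 with the 6 libraries. Leaving out 1 library gave 0 to 2 higher and 0 to 6 lower in Runx2wt, and 0 to 3 higher and 0 to 3 lower in Runx2ko. Without any 1 of the BM progenitor libraries all 4 counts were 0; fewer samples enter those fits. RLE size factors and a filter of 10 CPM in 3 libraries changed no count. In Runx2ko against Runx2wt every alternative gave 0 and 0. No alternative reversed a passing gene. The difference of Wars between Runx2ko and Runx2wt reversed to -0.155 without Runx2ko replicate 1, and with 1 library left out it ran up to 0.913. Of 17 alternatives, the call in Runx2ko held in 14 for Hars, 13 for Ears2, 10 for Sars, 9 for Kars, 6 for Eprs and 5 for Lars, and that of Kars in Runx2wt in 12. Where no construction of the alternative is named, the cause was not tested.

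Deviations of same-numbered libraries from their group means correlated at -0.066 to 0.072, so the numbers were not taken to pair the samples. With a replicate block the counts were 0 higher and 1 lower in Runx2wt, and 1 higher and 1 lower in Runx2ko. Low counts of the mitochondrial genes limit their precision. The scalings tried moved the median of all genes by less than 0.1 on the log2 scale.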
